A study of Oryza sativa Japonica Group with 29 samples.

Results

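The drought response of wild-type rice roots was measured by RNA sequencing in 6 libraries, 3 from roots deprived of water and 3 from watered roots, out of 11 RNA libraries and 29 samples in the series. All plants were of the cultivar ZH11 (WT), 25 days old at the 4-leaf stage and grown in hydroponic culture at 28 °C by day and 22 °C at night. WT drought roots came from seedlings kept without water supply for 3 h, and WT normal roots from seedlings that kept their supply. No transgene or other agent is named for either group. The series also holds roots of an OsNMCP1 over-expression genotype (OE; 3 OE drought and 2 OE normal RNA libraries), where OsNMCP1 is a protein likened to lamins, and its question for WT roots is how the parent cultivar reacts to the water loss against which those plants are judged. For the 3 WT drought libraries the molecule and library source are labelled genomic DNA, whereas RNA is what their titles state, and the titles were followed here. Replicates are called biological in the series, with no word on separate cultures, so each p measures only how these libraries spread.

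When roots lose water, abscisic acid (ABA) is made from carotenoids by a cleavage dioxygenase (NCED) and binds receptors that inhibit the clade A protein phosphatases (PP2C). The SnRK2 kinases are thereby released to activate bZIP transcription factors, which switch on genes for dehydrins and other late embryogenesis abundant (LEA) proteins. DREB, NAC and MYB factors act beside this path. Jasmonate, a lipid-derived hormone of wounding and osmotic stress, works through removal of JAZ repressor proteins, whose genes are themselves induced by the hormone. Rice answers many stresses and infections with diterpenoid phytoalexins, the momilactones and phytocassanes, whose genes lie in clusters.

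The 3 WT drought libraries stood farther from each other than the 3 WT normal libraries did. Over tested loci, log2(TPM + 1) values correlated at 0.9219 to 0.981 among WT drought libraries, against 0.9945 to 0.996 among WT normal libraries, and at 0.7666 to 0.8101 between the groups. WT drought replicate 3 stood apart from WT drought replicates 1 and 2, at -75.7 on the second principal component (12.8% of the variance), against 46.7 and 27.5. The first component (83.6%) separated the groups. Implied depths were 8.23 to 11.95 Gb in WT drought and 8.56 to 9.29 Gb in WT normal, and 20704 to 21182 loci against 21698 to 21756 loci reached 1 TPM (transcripts per 1000000). The tissue label was checked against marker genes. All 7 root markers with an accepted name were detected, with a summed level of 622.0 to 652 TPM in WT drought, against 1954 to 2006 TPM in WT normal. The silicon transporter genes LSI1 and LSI2 made up most of that sum in both groups. Of the 7 markers, 4 were called lower and 1 higher. The 4 genes listed as markers of shoot and green tissue (CAB1R, CAB2R, RBCS and PPDKB) were not at 0. They summed to 452 to 764 TPM in WT drought, against 1151 to 1527 TPM in WT normal, and their part in the results was not tested. In these whole roots, fewer cells of a type and less RNA per cell cannot be told apart.

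Water loss was followed by differences at most loci expressed in WT roots, with more loci lower than higher as TPM was deposited and with the largest differences in the upward direction. Of 22791 loci with at least 1 TPM in 2 or more of the 6 libraries, 4617 (20.3%) were higher in WT drought and 10441 (45.8%) were lower at an adjusted p under 0.05, which is 66.1% of loci tested. Differences are of mean log2(TPM + 1), WT drought minus WT normal, and each adjusted p comes from limma, adjusted by Benjamini-Hochberg over these 22791 loci. The median difference over all loci was -0.39. Median-ratio scaling, which takes the median to -0.01, called 6892 loci higher (30.2%) and 6535 lower (28.7%), so 51.3% of its calls were rises against 30.7% with TPM as deposited. Where a gene given below with its difference and adjusted p lost its call under the scaling, that adjusted p is given too.

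With TPM as deposited, 2950 loci (12.9%) rose by at least 1 on the log2 scale, that is at least 2-fold in TPM + 1, and 4878 (21.4%) fell by as much. Larger differences were more often rises. At least 3 on the log2 scale, 626 loci were higher and 162 lower, and at least 5, 105 were higher and 2 lower. Under median-ratio scaling rises were the more numerous already at 1, with 4089 higher and 2488 lower, and the numbers were 808 higher and 88 lower at 3, and 138 higher and 1 lower at 5. The scale sets a limit here, since a fall cannot exceed the level in WT normal roots. From below 1 TPM in each WT normal library, 59 loci reached at least 10 TPM in each WT drought library, and the opposite held for 30 loci. NCED3 and LOX2 were the accepted names among those 59. Of the 100 loci with the highest mean TPM in WT drought, 44 were also among the 100 highest in WT normal. The 10 most abundant loci held 3.63% to 3.86% of all TPM in WT drought libraries and 5.87% to 6.10% in WT normal libraries, without overlap (exact permutation test, two-sided, p = 0.1, the smallest that 3 against 3 allows). Rises and falls of at least 1 were spread over all 12 chromosomes, at 10% to 14.8% of tested loci for rises and 19.1% to 23.6% for falls. The median span of the gene on the genome was 2436 bp for those rises and 2480 bp for those falls, against 3231 bp for all loci tested.

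**Figure D1:**
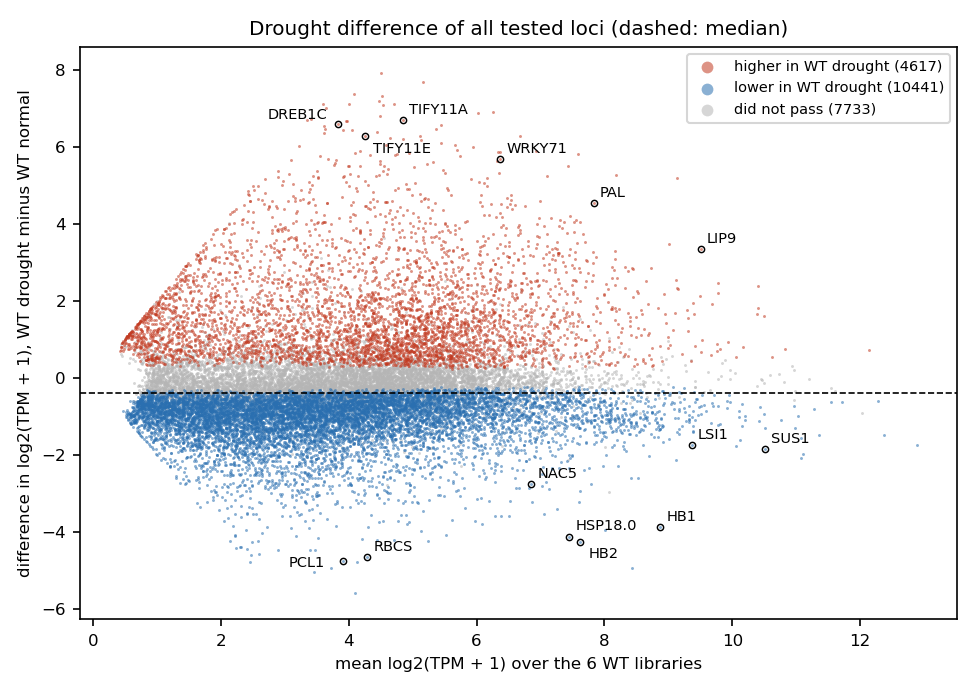
Each point is 1 of 22791 tested loci, with its mean log2(TPM + 1) over 6 libraries on the horizontal axis and its difference, WT drought minus WT normal, on the vertical axis. The 4617 loci called higher reach above 7, the 10441 called lower end near -5.6, and the median (dashed) lies at -0.39.

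**Figure D2:**
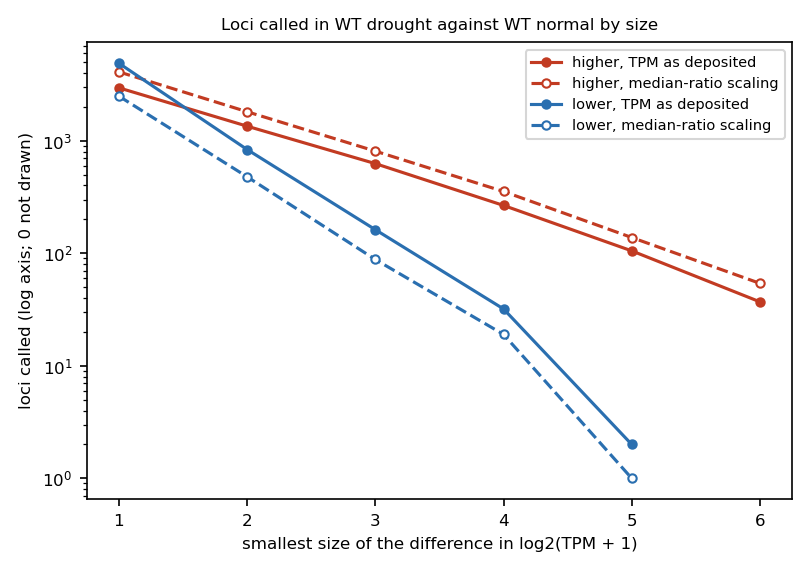
The number of loci called (log axis) is shown against the smallest size of the difference in log2(TPM + 1), for rises (red) and falls (blue), with TPM as deposited (solid) and median-ratio scaling (dashed). Falls outnumber rises at a size of 1 with TPM as deposited, 4878 against 2950, rises outnumber falls there under median-ratio scaling, 4089 against 2488, and from a size of 2 on in both.

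Some of the largest differences lay at loci with no accepted gene name. LOC_Os12g05440 (chromosome 12, 2468054 to 2469583; the genome build is not given here) stood at 433, 653 and 155 TPM in WT drought, against 0.225, 0.693 and 0.470 TPM in WT normal, a rise of 7.93 (SE 0.51, adjusted p = 9.82e-05). LOC_Os02g52670 (chromosome 2, 32204392 to 32205335) stood at 404, 752 and 440.4 TPM in WT drought, against 1.47, 0.974 and 2.17 TPM in WT normal, a rise of 7.69 (SE 0.29, adjusted p = 2.79e-05). Both were close to absent in watered roots and among the well expressed loci in droughted ones. LOC_Os02g39620 (chromosome 2, 23903894 to 23905003) stood at 2.37, 1.08 and 1.11 TPM in WT drought, against 128, 113 and 113 TPM in WT normal, and fell by 5.6 (SE 0.21, adjusted p = 2.95e-05). LOC_Os01g18970 (chromosome 1, 10720419 to 10721623) stood at 0.265, 1.27 and 1.38 TPM in WT drought, against 58.6, 69.0 and 59.1 TPM in WT normal, and fell by 5.06 (SE 0.26, adjusted p = 5.52e-05). LOC_Os12g05440 differed by 8.52 without WT drought replicate 3.

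Genes were followed in lists written from knowledge of rice gene families, in which 294 genes with an accepted name were tested, 92 higher, 103 lower and 99 that did not pass. The shares of all loci to set beside each list count are 20.3% higher and 45.8% lower (30.2% and 28.7% under median-ratio scaling). A gene under 1 TPM in WT normal roots was tested only if WT drought libraries reached 1 TPM. The filter thus favored rises for such genes, and falls for genes under 1 TPM in WT drought. Genes said below to show no overlap between groups were picked from the genes called, so this says nothing of other loci. The share of all tested loci without overlap is not given here. Jasmonate repressor genes had the highest median of the lists with at least 3 tested members. Of 9 tested, 7 rose and none fell (median 4.91, against -0.39 over all loci), and under median-ratio scaling 8 rose. TIFY11A (LOC_Os03g08310) stood at 522, 537 and 90.6 TPM in WT drought, against 1.62, 2.60 and 1.38 TPM in WT normal. TIFY11D (LOC_Os10g25290) stood at 548, 721 and 297 TPM in WT drought, against 6.02, 9.04 and 5.44 TPM in WT normal. TIFY11E, at 279, 299 and 55.5 TPM in WT drought, against 1.2, 1.09 and 1.19 TPM in WT normal, showed the same arrangement, with WT drought replicate 3 the lowest of its group and still above every WT normal library. TIFY11A rose by 6.71 (SE 0.69, adjusted p = 0.000411), TIFY11D by 6 (SE 0.35, adjusted p = 7.27e-05) and TIFY11E by 6.28 (SE 0.63, adjusted p = 0.000382). TIFY11B was already present in watered roots and stood at 1398, 1329 and 328 TPM in WT drought, against 18.8, 26.3 and 19.6 TPM in WT normal, a rise of 5.25 (SE 0.56, adjusted p = 0.000463). TIFY10A, the most abundant of these 9 in watered roots, stood at 804, 930.3 and 544 TPM in WT drought, against 52.3, 56.5 and 55.4 TPM in WT normal, a rise of 3.74 (SE 0.20, adjusted p = 6.08e-05). TIFY10C rose by 4.90 (SE 0.24, adjusted p = 4.96e-05) and TIFY9 by 4.91 (SE 0.27, adjusted p = 6.55e-05). TIFY6B, named after its values were seen, stood at 59.6, 51.7 and 34.9 TPM in WT drought, against 19.1, 6.78 and 37.2 TPM in WT normal, overlapped between the groups and did not pass (difference 1.42, SE 0.57, adjusted p = 0.0633). The 9 genes summed to 3233 ± 1405 TPM in WT drought and 152 ± 3.89 TPM in WT normal (SD, n = 3 each, exact permutation test, two-sided, p = 0.1). TIFY11A differed by 7.56, TIFY11E by 7.07 and TIFY11B by 5.93 without WT drought replicate 3. TIFY6B differed by 0.81 without WT normal replicate 2. TIFY6B passed without WT drought replicate 3 (1.64, adjusted p = 0.0439) and without WT normal replicate 3 (1.96, adjusted p = 0.0176).

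The enzymes that make jasmonate rose with them, 6 of 7 genes of the synthesis and signaling list (median 4.16), also under median-ratio scaling. Jasmonate synthesis and signaling falls numbered 1 without WT drought replicate 3 and with weights per group. LOX2, a lipoxygenase at the head of the path, stood at 14.6, 18.6 and 28.5 TPM in WT drought, against 0.0632, 0.0314 and 0 TPM in WT normal. AOS2, an allene oxide synthase, stood at 121, 109.7 and 55.8 TPM in WT drought, against 0.787, 1.01 and 0.547 TPM in WT normal. Both were near or under 1 TPM in watered roots, and no WT drought library overlapped a WT normal one. AOS2 was also among the largest rises, which were taken only where the groups did not overlap. LOX2 rose by 4.33 (SE 0.24, adjusted p = 6.55e-05) and AOS2 by 5.69 (SE 0.31, adjusted p = 6.07e-05). AOS1, named after its values were seen like OPR1, stood at 633, 763 and 204 TPM in WT drought, against 18.4, 21.6 and 18.6 TPM in WT normal, a rise of 4.50 (SE 0.48, adjusted p = 0.000461). OPR7, the reductase of jasmonate synthesis in peroxisomes, stood at 237, 283 and 264 TPM in WT drought, against 82.5, 79.5 and 80.3 TPM in WT normal, a rise of 1.68 (SE 0.10, adjusted p = 7.93e-05). OPR1, a related reductase, stood at 270.3, 583 and 962 TPM in WT drought, against 27.8, 28.0 and 31.0 TPM in WT normal, a rise of 4.16 (SE 0.43, adjusted p = 0.00042), and here WT drought replicate 3 was the highest library. JAR1, which joins jasmonate to isoleucine, stood at 122, 141 and 154 TPM in WT drought, against 27.3, 29 and 27.7 TPM in WT normal, a rise of 2.26 (SE 0.12, adjusted p = 5.48e-05). AOS1 differed by 5.09 without WT drought replicate 3.

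Diterpenoid phytoalexin genes rose in 8 of 9 cases, with 1 lower (median 2.45), and the counts were the same under median-ratio scaling. The momilactone cluster on chromosome 4 (5318060 to 5486773) holds 26 loci in the files, of which 18 were listed at 0 in all 6 libraries, 6 could be tested and 6 rose, by 1.81 to 4.65. CPS4, KSL4, CYP99A2, CPS2 and KSL7 did not reach 1 TPM in 2 WT normal libraries and passed the filter only through WT drought. For these genes the filter favored a rise, in the list count and in the cluster counts. CPS4, the diterpene cyclase that starts the momilactone path, stood at 64.8, 38.7 and 43.8 TPM in WT drought, against 0.875, 1.14 and 0.855 TPM in WT normal, a rise of 4.65 (SE 0.21, adjusted p = 4.07e-05). KSL4, the cyclase after it, stood at 2.11, 2.51 and 4.83 TPM in WT drought, against 0.111, 0.0738 and 0.239 TPM in WT normal, a rise of 1.81 (SE 0.25, adjusted p = 0.00107). CYP99A2 and CYP99A3, cytochromes P450 of the same path, also rose, CYP99A2 by 2.33 (SE 0.19, adjusted p = 0.00021) and CYP99A3 by 2.77 (SE 0.31, adjusted p = 0.000563), and MAS, the dehydrogenase of the last step, rose by 2.92 (SE 0.25, adjusted p = 0.000241). KSL4, CYP99A3, MAS and CYP71Z7 were named after their values were seen, as were the clusters. In the phytocassane cluster on chromosome 2 (21690378 to 21899230), 5 of 19 loci could be tested, 4 rose and 1 fell. CPS2, its first cyclase, stood at 4.51, 6.80 and 4.73 TPM in WT drought, against 0.0676, 0.0168 and 0.0900 TPM in WT normal, a rise of 2.57 (SE 0.16, adjusted p = 9.39e-05). KSL7 rose by 2.45 (SE 0.15, adjusted p = 8.19e-05) and CYP71Z7 by 1.44 (SE 0.16, adjusted p = 0.000472). CYP76M8, a P450 of the cluster, went the other way, at 6.5, 5.01 and 6.51 TPM in WT drought, against 13.4, 14.9 and 15.1 TPM in WT normal, and fell by 1.15 (SE 0.14, adjusted p = 0.000744).

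The same libraries held more transcript of WRKY factors and of the entry to phenylpropanoid metabolism. All 4 tested WRKY genes rose (median 3.33), also under median-ratio scaling. WRKY71, a factor known from gibberellin and defense signaling, stood at 794, 783 and 338 TPM in WT drought, against 7.83, 16.6 and 8.81 TPM in WT normal, a rise of 5.69 (SE 0.41, adjusted p = 0.000139). WRKY24 rose by 4.83 (SE 0.35, adjusted p = 0.000141), WRKY62 by 1.83 (SE 0.27, adjusted p = 0.00153) and WRKY51 by 1.21 (SE 0.11, adjusted p = 0.000306). PAL (LOC_Os02g41680), a phenylalanine ammonia-lyase, stood at 1030.4, 1308 and 981 TPM in WT drought, against 47.3, 47.2 and 44.3 TPM in WT normal. It rose by 4.54 (SE 0.13, adjusted p = 2.38e-05), and its 6 values left no overlap. 4CL3, a ligase further down the path, stood at 480.4, 537 and 690.1 TPM in WT drought, against 324, 318 and 334 TPM in WT normal, a rise of 0.79 (SE 0.15, adjusted p = 0.00371). At the lignin end CAD2 rose by 0.34 (SE 0.11, adjusted p = 0.0308), while COMT1, a methyltransferase, stood at 941, 849.7 and 899.6 TPM in WT drought, against 1438, 1403 and 1457 TPM in WT normal and fell by 0.68 (SE 0.09, adjusted p = 0.000921, and 0.0606 under median-ratio scaling). Over the phenylpropanoid and lignin list 3 of 4 genes rose and 1 fell, against 3 and 0 under median-ratio scaling. CAD2 lost its call without WT normal replicate 1, 2 or 3 (highest adjusted p = 0.11). CAD2 did not pass with FPKM (adjusted p = 0.0517).

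**Figure D3:**
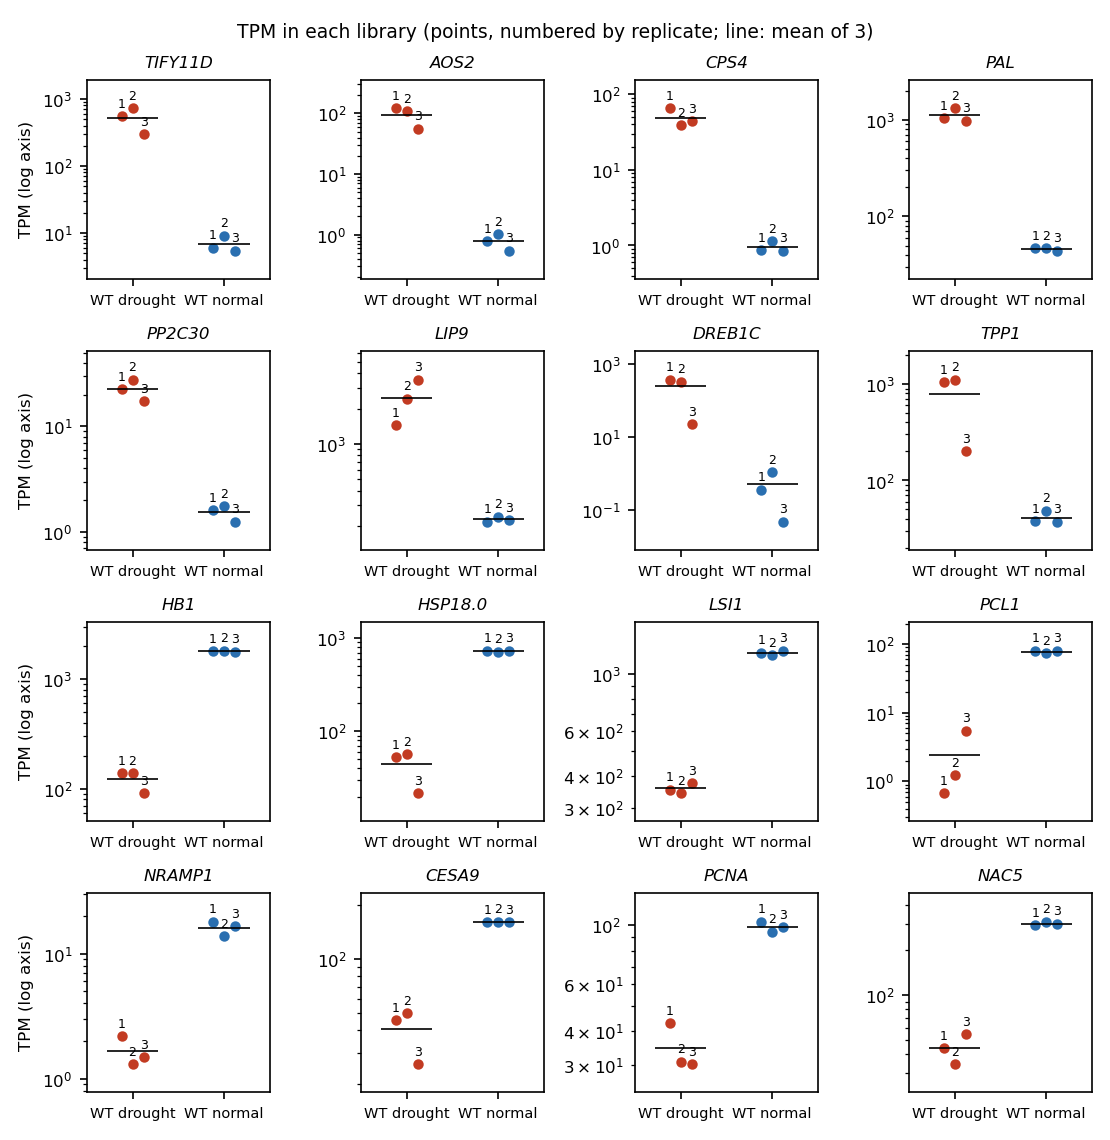
TPM (log axis) of 16 genes is shown in each of the 3 WT drought libraries (left, red) and the 3 WT normal libraries (right, blue), with replicate numbers over the points and the mean of 3 as a line. All 16 were picked from the genes called, so the lack of overlap in these panels says nothing of other loci. WT drought replicate 3 lies lowest of its group for DREB1C, TPP1 and HSP18.0 and highest for LIP9 and PCL1.

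Among stress transcription factors DREB1 genes rose from low levels in watered roots, by very different amounts in the 3 drought libraries. Of 6 tested DREB and CBF genes 4 rose and none fell (median 4.50), also under median-ratio scaling. DREB1C, DREB1F and DREB1G did not reach 1 TPM in 2 WT normal libraries and passed the filter only through WT drought. The filter thus favored rises in this count and median. DREB and CBF falls numbered 1 without WT drought replicate 3. DREB1C (LOC_Os06g03670) stood at 366, 323 and 22.7 TPM in WT drought, against 0.365, 1.11 and 0.0491 TPM in WT normal, a rise of 6.61 (SE 1.05, adjusted p = 0.00199). DREB1G rose by 5.09 (SE 0.93, adjusted p = 0.00346), and DREB1F, listed at 0 in all 3 WT normal libraries, stood at 42.0, 70.3 and 9.59 TPM in WT drought. DREB1A stood at 259, 156 and 108 TPM in WT drought, against 8.09, 12.6 and 7.51 TPM in WT normal, a rise of 4.01 (SE 0.35, adjusted p = 0.000237). Its neighbour DREB1B, named after its values were seen, stood at 467, 189 and 5.30 TPM in WT drought, against 4.23, 9.26 and 4.52 TPM in WT normal. There WT drought replicate 3 lay within the WT normal range, and the gene did not pass (difference 3.63, SE 1.52, adjusted p = 0.074). In the 3 NAC genes tested the directions parted. NAC rises numbered 2 without WT drought replicate 3, under median-ratio scaling, in the fit over 11 libraries and with weights per group. NAC4 stood at 73.1, 156 and 312 TPM in WT drought, against 1.72, 2.89 and 2.25 TPM in WT normal, a rise of 5.56 (SE 0.50, adjusted p = 0.000267), with WT drought replicate 3 the highest. NAC5, a drought-related NAC factor, stood at 43.8, 34.4 and 54.3 TPM in WT drought, against 293, 309 and 299 TPM in WT normal, and fell by 2.76 (SE 0.17, adjusted p = 8.5e-05). DREB1C differed by 5.92, DREB1G by 4.37 and DREB1B by 2.37 without WT drought replicate 1. DREB1C differed by 6.01 and DREB1B by 3.03 without WT drought replicate 2. DREB1C differed by 7.90 and DREB1G by 6.17 without WT drought replicate 3. DREB1B passed without WT drought replicate 3 (5.48, adjusted p = 8.72e-05), in the fit over 11 libraries (adjusted p = 0.0239) and with weights per group (adjusted p = 0.0318).

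Of the MYB, HD-Zip I and C2H2 regulators 4 of 5 rose (median 3.45), also under median-ratio scaling. HOX22 and HOX24, HD-Zip I factors known for induction by water loss, stood at 28.8, 38.7 and 46.5 TPM in WT drought, against 2.21, 1.45 and 2.07 TPM in WT normal, for HOX22, and at 11.8, 7.45 and 16 TPM in WT drought, against 0.0767, 0.153 and 0.124 TPM in WT normal, for HOX24. HOX22 rose by 3.73 (SE 0.21, adjusted p = 6.83e-05) and HOX24 by 3.45 (SE 0.26, adjusted p = 0.000149). MYB2 rose by 3.67 (SE 0.39, adjusted p = 0.000449) and MYB4 by 2.87 (SE 0.50, adjusted p = 0.00288). Of 14 heat shock factors 4 rose and 6 fell (median -0.24), beside 20.3% higher and 45.8% lower of all loci. Under median-ratio scaling 4 were called in each direction, and HSFA2E, 1 of the 6 that fell, stood at 0.04. HSFA2E is outside the genes taken by the rule for named genes. HSFA3 stood at 109.6, 155 and 74.7 TPM in WT drought, against 4.57, 4.85 and 4.32 TPM in WT normal, a rise of 4.29 (SE 0.26, adjusted p = 8.08e-05). HSFA4D rose by 2.01 (SE 0.27, adjusted p = 0.0011), HSFC2B by 1.56 (SE 0.13, adjusted p = 0.00023) and HSFB1 by 1.29 (SE 0.21, adjusted p = 0.00211). HSFA2C stood at 6.5, 5.44 and 3.36 TPM in WT drought, against 35.4, 32.9 and 30.5 TPM in WT normal, and fell by 2.51 (SE 0.22, adjusted p = 0.000237). HSFC1B fell by 2.70 (SE 0.30, adjusted p = 0.000527), HSFB2C fell by 1.45 (SE 0.29, adjusted p = 0.00518), and HSFA2B fell by 1.29 (SE 0.14, adjusted p = 0.000551). Of the heat shock proteins, 2 of 6 fell and none rose (median -0.64), with 1 lower under median-ratio scaling. Heat shock protein rises numbered 1 without WT drought replicate 3. Heat shock protein falls numbered 1 in the fit over 11 libraries. HSP18.0, of the small heat shock proteins, stood at 53.2, 57.3 and 21.9 TPM in WT drought, against 735, 715 and 733 TPM in WT normal, and fell by 4.13 (SE 0.35, adjusted p = 0.00023), whereas HSP17.9A fell by 1.17 (SE 0.27, adjusted p = 0.00931, and 0.0764 under median-ratio scaling). HSP81-1, a cytosolic HSP90 gene named after its values were seen, stood at 209, 130.5 and 14.7 TPM in WT drought, against 194, 222 and 196 TPM in WT normal and did not pass (difference -1.44, SE 0.92, adjusted p = 0.206), its lowest value being WT drought replicate 3. HSP81-1 differed by -2.17 without WT drought replicate 1. MYB4 differed by 3.48 and HSP81-1 by -0.30 without WT drought replicate 3. HSP17.9A did not pass in the fit over 11 libraries (adjusted p = 0.295).

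The ABA path changed at several steps. NCED3 (LOC_Os03g44380), the dioxygenase that limits ABA synthesis, stood at 10.8, 11.7 and 11.5 TPM in WT drought, against 0.997, 0.956 and 0.931 TPM in WT normal, a rise of 2.65 (SE 0.11, adjusted p = 3.5e-05). The 3 drought libraries were close together for this gene. ABA8OX3, an ABA 8'-hydroxylase that breaks ABA down, was weakly expressed, at 0.262, 1.42 and 2.99 TPM in WT drought, against 0.0797, 0.0528 and 0.170 TPM in WT normal, a rise of 1.07 (SE 0.39, adjusted p = 0.0498). ABA8OX1, the abundant hydroxylase gene, was named after its values were seen. It stood at 302, 142 and 31.0 TPM in WT drought, against 30.4, 32.9 and 31.7 TPM in WT normal, overlapped, and did not pass (difference 1.77, SE 0.76, adjusted p = 0.0789). In all 2 of 5 genes of ABA synthesis and breakdown rose and none fell (median 1.07), also under median-ratio scaling. ABA metabolism rises numbered 1 without WT drought replicate 2 or WT normal replicate 1, 2 or 3, with no filter and with FPKM. The 1 tested receptor gene, PYL11, stood at 51.4, 52.8 and 101 TPM in WT drought, against 68.3, 65.9 and 68.1 TPM in WT normal and did not pass (difference -0.05, SE 0.26, adjusted p = 0.877). ABA8OX1 differed by 1.05 without WT drought replicate 1. ABA8OX3 lost its call without WT drought replicate 2 or 3 or WT normal replicate 1, 2 or 3 (highest adjusted p = 0.131). ABA8OX1 passed without WT drought replicate 3 (2.67, adjusted p = 0.000272), in the fit over 11 libraries (adjusted p = 0.0274) and with weights per group (adjusted p = 0.021). PYL11 passed without WT drought replicate 3 (-0.37, adjusted p = 0.00287). ABA8OX3 did not pass with no filter (adjusted p = 0.0699) and with FPKM (adjusted p = 0.0546).

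Downstream, 5 of 7 clade A phosphatase genes rose and none fell (median 0.85), also under median-ratio scaling. PP2C30 stood at 22.4, 27.8 and 17 TPM in WT drought, against 1.62, 1.76 and 1.25 TPM in WT normal, a rise of 3.19 (SE 0.20, adjusted p = 8.65e-05). PP2C49 stood at 8.83, 21.4 and 14.8 TPM in WT drought, against 0.921, 0.972 and 0.695 TPM in WT normal, a rise of 3.03 (SE 0.30, adjusted p = 0.000357). Neither overlapped between the groups. PP2C68 rose by 1.84 (SE 0.22, adjusted p = 0.000639) and PP2C06 by 0.85 (SE 0.10, adjusted p = 0.000734). Of 9 SnRK2 kinase genes 2 were higher and 4 lower (median -0.50), which is near the 20.3% higher and 45.8% lower of all loci. The 4 falls were not called under median-ratio scaling, where 3 rose and none fell. SnRK2 rises numbered 1 without WT normal replicate 1, 2 or 3 and with no filter. SnRK2 falls numbered 2 without WT normal replicate 1 or 3. SAPK2 stood at 258, 294 and 298 TPM in WT drought, against 82.2, 80.0 and 81.0 TPM in WT normal, a rise of 1.79 (SE 0.10, adjusted p = 6.07e-05). SAPK1 rose by 0.68 (SE 0.23, adjusted p = 0.0406). SAPK3 fell by 0.98 (SE 0.24, adjusted p = 0.0124, and 0.11 under median-ratio scaling), and SAPK8 fell by 0.65 (SE 0.10, adjusted p = 0.0014, and 0.0665 under median-ratio scaling). BZIP23, an ABA-activated factor, stood at 132, 126 and 80.3 TPM in WT drought, against 58.5, 61.1 and 61.0 TPM in WT normal, a rise of 0.86 (SE 0.20, adjusted p = 0.00883). TRAB1, a factor of the same family, stood at 19.8, 19.7 and 21.7 TPM in WT drought, against 29.8, 29.1 and 31.2 TPM in WT normal, and fell by 0.54 (SE 0.10, adjusted p = 0.00401, and 0.332 under median-ratio scaling). SAPK1 lost its call without WT normal replicate 1, 2 or 3 (highest adjusted p = 0.117). SAPK1 did not pass with no filter (adjusted p = 0.0564).

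LEA and dehydrin genes rose in 4 of 5 tested cases (median 2.94), also under median-ratio scaling. LEA rises numbered 2 without WT normal replicate 1 or 3. LIP9 (LOC_Os02g44870), an abundant dehydrin gene, stood at 1448, 2436 and 3534 TPM in WT drought, against 218, 241 and 225 TPM in WT normal, a rise of 3.34 (SE 0.31, adjusted p = 0.000292). The RAB16 dehydrins lie together on chromosome 11 (15320188 to 15343857), where 3 of 5 loci were tested and all 3 rose. RAB16C and RAB21 were under 1 TPM in every WT normal library and passed the filter only through WT drought. For them the filter favored a rise, here and in the list count. RAB16D stood at 6.68, 59.2 and 21.7 TPM in WT drought, against 1.84, 1.71 and 2.03 TPM in WT normal. RAB21 stood at 2.95, 48.0 and 5.96 TPM in WT drought, against 0.170, 0.719 and 0 TPM in WT normal, and WT drought replicate 2 was the highest library for both, as for RAB16C at 1.87, 20.0 and 2.99 TPM in WT drought, against 0.321, 0.386 and 0.272 TPM in WT normal. RAB16D rose by 2.94 (SE 0.69, adjusted p = 0.00956), RAB21 by 3.13 (SE 0.90, adjusted p = 0.0208) and RAB16C by 2.23 (SE 0.71, adjusted p = 0.0306). LEA3, named after its values were seen, stood at 3.70, 82.9 and 13.2 TPM in WT drought, against 5.04, 3.64 and 4.13 TPM in WT normal, overlapped and did not pass (difference 1.76, SE 0.97, adjusted p = 0.151). These RAB16 genes are near-copies of each other, and how reads were divided among such copies is not given in the sources used here, which also holds for the pairs TIFY11A with TIFY11B, RR9 with RR10, CAB1R with CAB2R, ADH1 with ADH2 and NAS1 with NAS2, and for the aquaporins. RAB16D differed by 3.69 and RAB21 by 3.87 without WT drought replicate 1. RAB16D differed by 2.21, RAB21 by 2.05, RAB16C by 1.35 and LEA3 by 0.64 without WT drought replicate 2. RAB21 lost its call without WT normal replicate 1 or 3 (highest adjusted p = 0.0646). RAB16C lost its call without WT normal replicate 1, 2 or 3 (highest adjusted p = 0.0792). LEA3 passed without WT drought replicate 1 (2.72, adjusted p = 0.0267).

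Of 7 genes for compatible solutes 3 rose and 1 fell (median -0.06), against 4 and 0 under median-ratio scaling. Solute gene falls numbered 2 without WT drought replicate 3. TPP1, a trehalose-6-phosphate phosphatase, stood at 1051, 1115 and 201 TPM in WT drought, against 37.6, 48.7 and 37.3 TPM in WT normal, a rise of 3.89 (SE 0.65, adjusted p = 0.00249). TPP2 stood at 29.9, 42.0 and 98.6 TPM in WT drought, against 11.7, 12.9 and 11.1 TPM in WT normal, a rise of 1.98 (SE 0.41, adjusted p = 0.00583). WT drought replicate 3 was the lowest drought library for TPP1 and the highest for TPP2. ADC1, the arginine decarboxylase of polyamine synthesis, stood at 578, 605 and 489 TPM in WT drought, against 156, 156 and 167 TPM in WT normal, a rise of 1.79 (SE 0.11, adjusted p = 8.96e-05). BADH2, a betaine aldehyde dehydrogenase, fell by 0.67 (SE 0.12, adjusted p = 0.00328, and 0.228 under median-ratio scaling). The proline synthesis genes P5CS1 and P5CS2 differed by -0.20 and -0.26, with adjusted p = 0.13 and 0.417, and were named after their values were seen. In sugar use and transport 2 of 10 genes rose and 3 fell (median -0.10), beside 20.3% higher and 45.8% lower of all loci. SUS1 (LOC_Os03g28330), a sucrose synthase, stood at 825, 921 and 585 TPM in WT drought, against 2704, 2963 and 2647 TPM in WT normal, and fell by 1.86 (SE 0.18, adjusted p = 0.00034). SUS2 fell by 0.66 (SE 0.18, adjusted p = 0.017, and 0.37 under median-ratio scaling). CIN2, a cell wall invertase, stood at 31.0, 26.8 and 16.3 TPM in WT drought, against 110.4, 117 and 108 TPM in WT normal, and fell by 2.18 (SE 0.23, adjusted p = 0.00045). SUT4, a sucrose transporter, stood at 87.4, 101 and 66.4 TPM in WT drought, against 18.3, 16.6 and 17.5 TPM in WT normal, a rise of 2.20 (SE 0.17, adjusted p = 0.000165), and SWEET13, a sugar exporter, rose by 2.12 (SE 0.50, adjusted p = 0.0101). TPP1 differed by 4.69 and SWEET13 by 1.52 without WT drought replicate 3. SUS2 lost its call without WT normal replicate 1 or 3 (highest adjusted p = 0.0644). P5CS1 passed without WT drought replicate 3 (-0.27, adjusted p = 0.016).

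Aquaporins, the water channels of plasma membrane (PIP) and vacuole (TIP), differed from member to member. Of 10 PIP genes 4 rose and 1 fell (median 0.08), the same counts under median-ratio scaling. PIP rises numbered 7 without WT drought replicate 3. PIP1-3 stood at 1484, 1420.1 and 946 TPM in WT drought, against 248, 252 and 261 TPM in WT normal, a rise of 2.31 (SE 0.18, adjusted p = 0.000181). PIP2-3 stood at 637, 571 and 434 TPM in WT drought, against 115, 123 and 121 TPM in WT normal, a rise of 2.17 (SE 0.15, adjusted p = 0.000131). PIP2-5 rose by 2.26 (SE 0.33, adjusted p = 0.00135) and PIP2-4, its neighbour on chromosome 7, by 1.66 (SE 0.32, adjusted p = 0.0045). PIP2-6 stood at 99.3, 96.1 and 63.5 TPM in WT drought, against 359.7, 359 and 363 TPM in WT normal, and fell by 2.08 (SE 0.18, adjusted p = 0.000246). Of 5 TIP genes 2 rose and none fell (median -0.37). TIP falls numbered 1 in the fit over 11 libraries, and 2 on leaving out WT drought replicate 3 and with weights per group. TIP1-2 stood at 529.5, 584 and 361 TPM in WT drought, against 48.9, 62.5 and 48.4 TPM in WT normal, a rise of 3.16 (SE 0.21, adjusted p = 0.000104), and TIP2-1 rose by 0.82 (SE 0.20, adjusted p = 0.0122).

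Hemoglobin and fermentation genes, known from the response to low oxygen, fell throughout the list. All 5 tested were lower (median -1.63), and 4 under median-ratio scaling, beside 45.8% and 28.7% lower of all loci. HB1 (LOC_Os03g13140), a hemoglobin gene induced by low oxygen and nitrate, stood at 139, 138 and 91.7 TPM in WT drought, against 1789.6, 1811 and 1779 TPM in WT normal. HB2 (LOC_Os03g12510) stood at 54.1, 57.8 and 26.8 TPM in WT drought, against 861, 892 and 826 TPM in WT normal. In watered roots they were among the abundant transcripts, and every drought library was below every normal one. Both were also among the largest falls, which were taken only where the groups did not overlap. HB1 fell by 3.88 (SE 0.17, adjusted p = 4.06e-05), and HB2 fell by 4.26 (SE 0.29, adjusted p = 0.00011). PDC2, a pyruvate decarboxylase, stood at 164, 154 and 105 TPM in WT drought, against 457, 383 and 457 TPM in WT normal, and fell by 1.63 (SE 0.19, adjusted p = 0.000608). ADH2, an alcohol dehydrogenase, fell by 1.04 (SE 0.13, adjusted p = 0.000839), and ADH1, named after its values were seen, fell by 0.50 (SE 0.10, adjusted p = 0.00498, and 0.673 under median-ratio scaling).

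Genes of mineral nutrition differed from list to list, beside 45.8% lower and 20.3% higher of all loci. Under median-ratio scaling those shares were 28.7% and 30.2%. All 3 silicon transporter genes were lower (median -1.75), also under median-ratio scaling, and together they summed to 603 ± 41.6 TPM in WT drought and 2000.5 ± 20.7 TPM in WT normal (SD, n = 3 each, exact permutation test, two-sided, p = 0.1). LSI1 (LOC_Os02g51110), the influx channel, stood at 354, 344 and 377 TPM in WT drought, against 1209.5, 1187 and 1233 TPM in WT normal, and fell by 1.75 (SE 0.09, adjusted p = 4.68e-05). LSI2, the efflux transporter, stood at 224, 264 and 159 TPM in WT drought, against 725, 706 and 707 TPM in WT normal, and fell by 1.75 (SE 0.19, adjusted p = 0.000464). LSI6 fell by 1.41 (SE 0.18, adjusted p = 0.000822). In the list for iron and zinc 9 of 13 genes fell and 1 rose (median -1.19), against 6 and 2 under median-ratio scaling. Iron and zinc rises numbered 0 without WT normal replicate 1, 2 or 3 and in the fit over 11 libraries, and 2 on leaving out WT drought replicate 3. NRAMP1, a metal transporter, stood at 2.18, 1.31 and 1.49 TPM in WT drought, against 18, 13.8 and 16.6 TPM in WT normal, and fell by 2.70 (SE 0.18, adjusted p = 0.000102). YSL2, a carrier of metal complexes with nicotianamine, stood at 2.91, 1.28 and 1.61 TPM in WT drought, against 15.6, 10.5 and 14.4 TPM in WT normal, and fell by 2.33 (SE 0.25, adjusted p = 0.000464). NAS1, a nicotianamine synthase, stood at 0.168, 1.14 and 6.60 TPM in WT drought, against 45.3, 30.1 and 44.3 TPM in WT normal, and fell by 3.91 (SE 0.66, adjusted p = 0.00246). These 3 genes showed no overlap between groups. All 3 were also among the largest falls, for which a lack of overlap was a condition, so it says nothing further of them. NAS3 fell by 1.66 (SE 0.20, adjusted p = 0.000759), and ZIP4, a zinc transporter, fell by 1.96 (SE 0.26, adjusted p = 0.000988), while YSL16 rose by 0.41 (SE 0.12, adjusted p = 0.0206). NAS1 differed by -3.32 without WT drought replicate 1. NAS1 differed by -4.67 without WT drought replicate 3. YSL16 lost its call without WT normal replicate 1, 2 or 3 (highest adjusted p = 0.0816). YSL16 did not pass in the fit over 11 libraries (adjusted p = 0.115).

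Of 6 nitrogen genes 4 fell and 1 rose (median -0.72), beside 45.8% lower and 20.3% higher of all loci. NIA1, a nitrate reductase, stood at 14.2, 6.49 and 1.51 TPM in WT drought, against 50.5, 56.8 and 52.1 TPM in WT normal, and fell by 3.04 (SE 0.61, adjusted p = 0.00504). AMT1-3, an ammonium transporter, stood at 174, 142 and 20.1 TPM in WT drought, against 366, 353 and 369.6 TPM in WT normal, and fell by 2.17 (SE 0.77, adjusted p = 0.0448, and 0.11 under median-ratio scaling). GLN1-1, a cytosolic glutamine synthetase, fell by 0.86 (SE 0.12, adjusted p = 0.00109), and NRT2.3, a nitrate transporter, fell by 0.59 (SE 0.13, adjusted p = 0.00832). AMT2-1 rose by 1.27 (SE 0.15, adjusted p = 0.000577). Of 7 phosphate genes 2 rose and 1 fell (median -0.35), PT1 at 171, 136 and 106 TPM in WT drought, against 53.2, 60.8 and 53.3 TPM in WT normal, a rise of 1.27 (SE 0.18, adjusted p = 0.00136). PT4 rose by 0.46 (SE 0.11, adjusted p = 0.00885), and PT6 fell by 0.62 (SE 0.18, adjusted p = 0.0217, and 0.0886 under median-ratio scaling). Phosphate gene rises numbered 1 in the fit over 11 libraries. Phosphate gene falls numbered 0 without WT drought replicate 2 or WT normal replicate 1 or 3 and under median-ratio scaling, and 2 on leaving out WT drought replicate 1, and 3 on leaving out WT drought replicate 3. HKT1, a sodium transporter, stood at 2.13, 1.58 and 3.37 TPM in WT drought, against 10.8, 13 and 9.83 TPM in WT normal, and fell by 1.89 (SE 0.22, adjusted p = 0.000662), the 1 call among 4 potassium and sodium genes. HAK1, a potassium uptake transporter, did not pass (difference -0.29, SE 0.30, adjusted p = 0.428). Potassium and sodium rises numbered 1 without WT drought replicate 3. NIA1 differed by -3.64 without WT drought replicate 1. NIA1 differed by -2.34 and AMT1-3 by -1.2 without WT drought replicate 3. AMT1-3 lost its call without WT drought replicate 2 or WT normal replicate 1, 2 or 3 (highest adjusted p = 0.103). PT6 lost its call without WT drought replicate 2 or WT normal replicate 1 or 3 (highest adjusted p = 0.0684). AMT1-3 did not pass with no filter (adjusted p = 0.0672). PT4 did not pass in the fit over 11 libraries (adjusted p = 0.204).

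**Figure D4:**
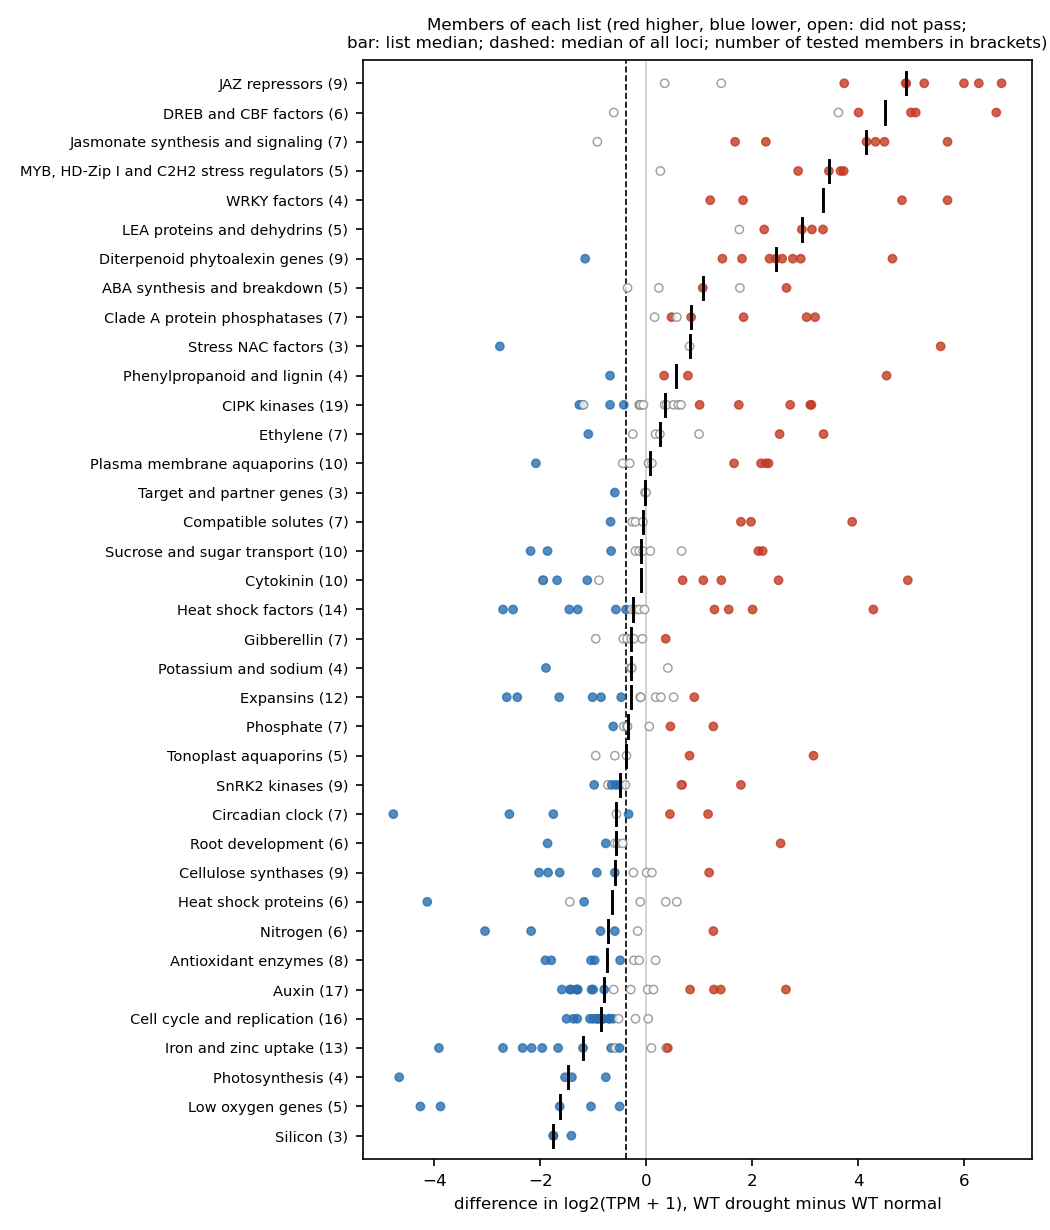
Each point is a tested member of a list, placed by its difference in log2(TPM + 1), WT drought minus WT normal, in red if called higher, blue if called lower and open if it did not pass. JAZ repressors have the highest list median (4.91) and silicon transporters the lowest (-1.75), with the median of all loci at -0.39.

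Cellulose synthase genes moved both ways. The 3 cellulose synthases of the secondary wall fell. CESA9 stood at 45.7, 49.7 and 25.9 TPM in WT drought, against 161, 161 and 160.3 TPM in WT normal. CESA7 stood at 58.4, 65.1 and 33.8 TPM in WT drought, against 182, 186 and 184 TPM in WT normal. CESA4 stood at 67.3, 71.0 and 38.8 TPM in WT drought, against 180.3, 177 and 178 TPM in WT normal, and for all 3 the lowest library was WT drought replicate 3. CESA9 fell by 2.02 (SE 0.24, adjusted p = 0.000684), CESA7 fell by 1.85 (SE 0.24, adjusted p = 0.000936), and CESA4 fell by 1.63 (SE 0.23, adjusted p = 0.00127). Of the other synthases, CESA6 stood at 444, 556 and 254 TPM in WT drought, against 176, 172 and 172 TPM in WT normal, a rise of 1.19 (SE 0.28, adjusted p = 0.00907), and CESA3 fell by 0.93 (SE 0.16, adjusted p = 0.00266, and 0.0608 under median-ratio scaling). Over the list 1 of 9 rose and 5 fell (median -0.59), with 1 and 3 under median-ratio scaling, beside 45.8% lower of all loci. Cellulose synthase rises numbered 2 without WT drought replicate 3. Expansins, which loosen walls, fell in 6 of 12 cases and 1 rose (median -0.29), against 4 and 4 under median-ratio scaling, and the share that fell is near the 45.8% of all loci. Expansin rises numbered 2 without WT drought replicate 1 or 3. EXPB7 stood at 14.6, 18.6 and 72.8 TPM in WT drought, against 174, 175 and 174 TPM in WT normal, and fell by 2.63 (SE 0.56, adjusted p = 0.00644). EXPB5 fell by 2.43 (SE 0.35, adjusted p = 0.00128), EXPA4 fell by 1.64 (SE 0.22, adjusted p = 0.00108), and EXPB4 fell by 1.01 (SE 0.13, adjusted p = 0.000982). EXPB2 rose by 0.91 (SE 0.16, adjusted p = 0.00283). EXPB7 differed by -3.33 without WT drought replicate 3.

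Genes of cell division and DNA replication were lower by modest amounts. Of 16 tested 13 fell and none rose (median -0.86), beside 45.8% lower and 20.3% higher of all loci. Under median-ratio scaling 9 fell and 1 rose, beside 28.7% and 30.2% of all loci. Cell division falls numbered 8 in the fit over 11 libraries. PCNA (LOC_Os02g56130), the sliding clamp of DNA replication, stood at 43.0, 30.8 and 30.2 TPM in WT drought, against 103, 94.7 and 98.4 TPM in WT normal, and fell by 1.50 (SE 0.16, adjusted p = 0.000422). MCM7, a subunit of the replicative helicase, stood at 5.32, 3.88 and 4.35 TPM in WT drought, against 10.6, 9.70 and 11 TPM in WT normal, and fell by 1.06 (SE 0.14, adjusted p = 0.00108). CYCD4-1, a D-type cyclin, fell by 1.37 (SE 0.20, adjusted p = 0.00137), and CYCD3-1 fell by 1.3 (SE 0.19, adjusted p = 0.00141). The 16 genes summed to 230.2 ± 28.4 TPM in WT drought and 409.9 ± 11.9 TPM in WT normal (SD, n = 3 each, exact permutation test, two-sided, p = 0.1). SHR1, a regulator of root tissue layers, stood at 3.41, 2.12 and 5.82 TPM in WT drought, against 14.8, 16.2 and 15.6 TPM in WT normal, and fell by 1.86 (SE 0.28, adjusted p = 0.00163). QHB, a gene of the quiescent center, fell by 0.76 (SE 0.13, adjusted p = 0.00295). WOX11, a regulator of crown root outgrowth, stood at 4.51, 10.8 and 55.4 TPM in WT drought, against 1.31, 1.89 and 1.79 TPM in WT normal, a rise of 2.54 (SE 0.79, adjusted p = 0.0284), with the 3 drought libraries more than 10-fold apart. Over the root development list 1 of 6 rose and 2 fell (median -0.57), also under median-ratio scaling. Root development rises numbered 0 without WT drought replicate 2 or WT normal replicate 1, 2 or 3. Root development falls numbered 5 without WT drought replicate 3. WOX11 differed by 3.28 without WT drought replicate 1. WOX11 differed by 1.61 without WT drought replicate 3. WOX11 lost its call without WT drought replicate 2 or WT normal replicate 1, 2 or 3 (highest adjusted p = 0.0793).

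Growth hormone genes moved in both directions. Of 17 auxin genes 4 rose and 9 fell (median -0.79), against 5 and 7 under median-ratio scaling, which is near the 20.3% higher and 45.8% lower of all loci and says nothing particular of auxin. GH3-8, which joins auxin to amino acids, stood at 110.1, 99.0 and 56.6 TPM in WT drought, against 12.6, 12.9 and 12.9 TPM in WT normal, a rise of 2.64 (SE 0.25, adjusted p = 0.000318). The auxin efflux carrier gene PIN1B stood at 32.8, 24.7 and 29.5 TPM in WT drought, against 69.9, 72.0 and 73.9 TPM in WT normal, and fell by 1.29 (SE 0.13, adjusted p = 0.000367). Of the Aux/IAA repressors, IAA31 fell by 1.42 (SE 0.10, adjusted p = 0.00014), IAA13 fell by 1.3 (SE 0.10, adjusted p = 0.000152), and IAA4 fell by 1.44 (SE 0.12, adjusted p = 0.000212), while IAA6 rose by 1.28 (SE 0.17, adjusted p = 0.00104) and IAA23 by 1.41 (SE 0.32, adjusted p = 0.00843). Of 10 cytokinin genes 5 rose and 3 fell (median -0.10). Cytokinin falls numbered 5 without WT drought replicate 3 and with weights per group. The cytokinin oxidase genes CKX5 and CKX4, whose products break cytokinin down, both rose. CKX5 stood at 128, 143 and 45.8 TPM in WT drought, against 2.19, 1.97 and 2.19 TPM in WT normal, a rise of 4.94 (SE 0.42, adjusted p = 0.000231), and CKX4 rose by 2.50 (SE 0.18, adjusted p = 0.000144). CKX3 fell by 1.68 (SE 0.32, adjusted p = 0.00408). CKX11, named after its values were seen, stood at 9.52, 6.06 and 71.1 TPM in WT drought, against 66.0, 63.6 and 69.8 TPM in WT normal and did not pass (difference -1.95, SE 0.82, adjusted p = 0.0763), and WT drought replicate 3 lay within the range of WT normal. RR1, a type-A response regulator, stood at 0.814, 0.523 and 0.907 TPM in WT drought, against 5.64, 5.32 and 6.14 TPM in WT normal, and fell by 1.94 (SE 0.14, adjusted p = 0.000123). RR6 and RR9, of the same type, rose too, RR6 by 1.42 (SE 0.23, adjusted p = 0.0022) and RR9 by 0.69 (SE 0.16, adjusted p = 0.00818). CKX11 differed by -1.29 without WT drought replicate 2. CKX11 passed without WT drought replicate 3 (-2.97, adjusted p = 2.34e-05), in the fit over 11 libraries (adjusted p = 0.0275) and with weights per group (adjusted p = 0.0201).

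Of 7 ethylene genes 2 rose and 1 fell (median 0.26), with 4 higher under median-ratio scaling. Ethylene rises numbered 1 without WT drought replicate 1 or 2 or WT normal replicate 1, 2 or 3. Ethylene falls numbered 2 without WT drought replicate 3. ACO1, an enzyme of the last step of ethylene synthesis, stood at 14.5, 34.1 and 28.6 TPM in WT drought, against 1.19, 1.95 and 1.36 TPM in WT normal, a rise of 3.35 (SE 0.32, adjusted p = 0.000332). ACS1, of the step before, stood at 69.1, 44.4 and 7.62 TPM in WT drought, against 4.10, 5.15 and 3.63 TPM in WT normal, a rise of 2.52 (SE 0.74, adjusted p = 0.0229). EIN2, the central signal carrier, fell by 1.09 (SE 0.17, adjusted p = 0.00171). In the gibberellin list 1 of 7 passed, KS1, an early synthesis enzyme, which rose by 0.37 (SE 0.13, adjusted p = 0.0368). KAO, a later one, did not pass (difference -0.43, SE 0.17, adjusted p = 0.0635). Gibberellin rises numbered 2 under median-ratio scaling, and 0 on leaving out WT drought replicate 1 or 2 or WT normal replicate 1, 2 or 3, with FPKM and with weights per group. Gibberellin falls numbered 2 without WT drought replicate 1 and with FPKM, and 1 in the fit over 11 libraries and with weights per group, and 3 on leaving out WT drought replicate 3. ACS1 differed by 3.43 without WT drought replicate 3. ACS1 and KS1 lost their calls without WT drought replicate 1 or 2 or WT normal replicate 1, 2 or 3 (highest adjusted p = 0.0856 and 0.128). KAO passed without WT drought replicate 1 (-0.56, adjusted p = 0.0212) and with FPKM (adjusted p = 0.0431). KS1 did not pass with FPKM (adjusted p = 0.0522) and with weights per group (adjusted p = 0.132).

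Clock and light-harvesting genes differed too, and the hour of sampling is not given in the sources used here. PCL1 (LOC_Os01g74020), an evening clock gene, stood at 0.681, 1.22 and 5.49 TPM in WT drought, against 80.0, 73.2 and 80.4 TPM in WT normal, and fell by 4.77 (SE 0.48, adjusted p = 0.00039). PRR95 stood at 7.36, 4.48 and 17.6 TPM in WT drought, against 58.9, 53.2 and 55.4 TPM in WT normal, and fell by 2.58 (SE 0.42, adjusted p = 0.00219). PRR1 fell by 1.75 (SE 0.18, adjusted p = 0.000382), GI fell by 0.33 (SE 0.09, adjusted p = 0.0168, and 0.377 under median-ratio scaling), and PRR73 rose by 1.17 (SE 0.10, adjusted p = 0.000224), as PRR37 did by 0.45 (SE 0.14, adjusted p = 0.0251). In all 2 of 7 clock genes rose and 4 fell (median -0.56), beside 20.3% higher and 45.8% lower of all loci. Under median-ratio scaling 2 rose and 3 fell, and GI stood at 0.11. Clock gene rises numbered 1 without WT normal replicate 1, 2 or 3. All 4 genes of the photosynthesis list fell (median -1.47), and 3 under median-ratio scaling, beside 45.8% and 28.7% lower of all loci. RBCS, the small subunit of Rubisco, stood at 0.359, 3.39 and 8.79 TPM in WT drought, against 126, 60.1 and 122 TPM in WT normal, and fell by 4.66 (SE 0.72, adjusted p = 0.00173). CAB1R, a light-harvesting protein, stood at 167, 219.5 and 94.4 TPM in WT drought, against 476, 368 and 488 TPM in WT normal, and fell by 1.53 (SE 0.31, adjusted p = 0.00525). PPDKB, a pyruvate phosphate dikinase, fell by 1.4 (SE 0.13, adjusted p = 0.000328), and CAB2R fell by 0.76 (SE 0.23, adjusted p = 0.0272, and 0.355 under median-ratio scaling). RBCS differed by -3.91 without WT drought replicate 1. RBCS differed by -5.33 without WT drought replicate 3. GI and PRR37 lost their calls without WT normal replicate 1, 2 or 3 (highest adjusted p = 0.0916 and 0.0862). CAB2R lost its call without WT drought replicate 1 or WT normal replicate 1 or 3 (highest adjusted p = 0.0927). CAB2R did not pass in the fit over 11 libraries (adjusted p = 0.238) and with weights per group (adjusted p = 0.0745).

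Of 8 antioxidant enzyme genes 5 fell and none rose (median -0.73), beside 45.8% lower and 20.3% higher of all loci, and under median-ratio scaling 3 fell and 1 rose. SODCC2, a copper-zinc superoxide dismutase, stood at 299.8, 288 and 246 TPM in WT drought, against 592, 570.3 and 552 TPM in WT normal, and fell by 1.04 (SE 0.11, adjusted p = 0.000416). SODA, the manganese enzyme, fell by 0.97 (SE 0.10, adjusted p = 0.000443), and APX8, an ascorbate peroxidase of plastids, fell by 1.79 (SE 0.30, adjusted p = 0.00247). CATB, a catalase, fell by 0.49 (SE 0.12, adjusted p = 0.0106, and 0.644 under median-ratio scaling), and CATA, named after its values were seen, fell by 1.9 (SE 0.51, adjusted p = 0.0164, and 0.0575 under median-ratio scaling). RBOHB, an oxidase that makes superoxide, stood at 58.0, 71.7 and 54.2 TPM in WT drought, against 73.2, 73.3 and 71.2 TPM in WT normal and did not pass (difference -0.25, SE 0.13, adjusted p = 0.125). Both metallothionein genes fell, and 1 of them under median-ratio scaling. Metallothionein falls numbered 1 without WT normal replicate 1, 2 or 3 and with no filter. MT2A stood at 627, 495 and 518 TPM in WT drought, against 1285, 1142 and 1235 TPM in WT normal, and fell by 1.16 (SE 0.12, adjusted p = 0.000432), and MT1A fell by 0.62 (SE 0.19, adjusted p = 0.029, and 0.523 under median-ratio scaling). CIPK kinases, which act with calcium sensors, held 5 risers and 4 fallers among 19 (median 0.35), against 9 and 2 under median-ratio scaling. CIPK rises numbered 8 without WT drought replicate 1. CIPK9 stood at 435, 407 and 327 TPM in WT drought, against 40.8, 48.5 and 42.5 TPM in WT normal, a rise of 3.12 (SE 0.14, adjusted p = 4.03e-05). CIPK21 rose by 3.10 (SE 0.32, adjusted p = 0.000421), CIPK17 by 2.72 (SE 0.36, adjusted p = 0.00102) and CIPK1 by 1.75 (SE 0.21, adjusted p = 0.000644). CIPK22 fell by 1.2 (SE 0.12, adjusted p = 0.000343), and CIPK12 fell by 1.26 (SE 0.14, adjusted p = 0.000493). CATA lost its call without WT normal replicate 1 (highest adjusted p = 0.0565). MT1A lost its call without WT normal replicate 1, 2 or 3 (highest adjusted p = 0.0991). RBOHB passed without WT drought replicate 2 (-0.37, adjusted p = 0.0187). MT1A did not pass with no filter (adjusted p = 0.0698).

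The gene over-expressed in the other genotype of the series, OsNMCP1 (LOC_Os01g56140), stood at 37.4, 28.1 and 46.4 TPM in WT drought, against 35.5, 37.6 and 36.3 TPM in WT normal, overlapped between the groups and did not pass (difference 0.00, SE 0.19, adjusted p = 0.988); under median-ratio scaling it differed by 0.43 (adjusted p = 0.0461). Its family member NMCP1A fell by 0.59 (SE 0.14, adjusted p = 0.0107, and 0.261 under median-ratio scaling). SWI3C1, which belongs to a SWI/SNF chromatin remodeler, stood apart by -0.02 (SE 0.09, adjusted p = 0.848) with TPM as deposited and by 0.40 under median-ratio scaling (adjusted p = 0.0126).

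WT drought replicate 3 differed from its group gene by gene and not in 1 direction. It stood at least 1 on the log2 scale above both other drought libraries at 1338 loci and below both at 960, against 119 and 233 loci for WT drought replicate 1 and 56 and 45 for WT drought replicate 2. Of the 195 called genes with an accepted name, 27 stood at least 1 lower in WT drought replicate 3 than the mean of WT drought replicates 1 and 2, and 17 stood at least 1 higher. Those lower were led by DREB1C (by -3.86), DREB1G (-3.23), AMT1-3 (-2.91), ACS1 (-2.71), TIFY11A (-2.53) and TPP1 (-2.42). Those higher were led by WOX11 (by 2.81), NAS2 (2.44), NAS1 (2.27), EXPB7 (2.08), RBCS (2) and SWEET13 (1.79). WT drought replicate 3 was farther from the WT normal mean for 90 of the 195 genes and nearer for 105. Without it, 5398 loci (23.7%) were higher and 12439 (54.6%) lower, and 14929 of the 15058 calls were made again in the same direction.

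**Figure D5:**
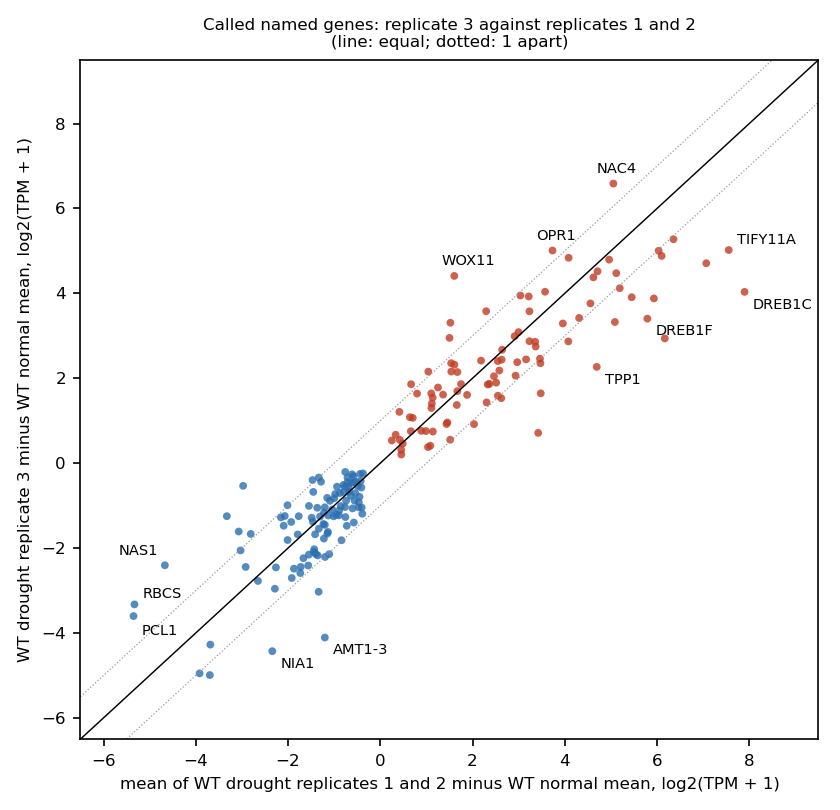
Each point is 1 of 195 called genes with an accepted name, with the mean of WT drought replicates 1 and 2 minus the WT normal mean on the horizontal axis and WT drought replicate 3 minus the WT normal mean on the vertical axis, both in log2(TPM + 1) (red, called higher; blue, called lower). Points on the line are equal, and 27 lie at least 1 below it and 17 at least 1 above it.

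The size of the drought response could be set beside that of OE roots, measured in 3 OE drought and 2 OE normal libraries. The test of the difference, the OE response minus the WT response, called 3293 loci (14.4%), 762 higher (3.34%) and 2531 lower (11.1%), in limma over all 11 libraries with adjustment over 22791 loci. It was run on TPM as deposited, without median-ratio scaling. The median TPM of tested loci was 8.53 to 9.77 in OE drought against 13.9 to 14.3 in OE normal. In WT it was 10.1 to 11.4 in drought against 13.3 to 13.7 in normal. The part of this in the larger number of lower calls was not tested. Of the 294 named genes tested, 82 were called. For the other 212 named genes the 2 responses were not distinguished, which does not show that they are alike.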

How the data were processed

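RNA was sequenced from roots of 3 WT drought and 3 WT normal samples, and 3 OE drought and 2 OE normal libraries were used for the interaction; the 18 ATAC-seq samples were not used here. StringTie 1.3.6, SAMtools 1.9, DESeq2, fastp, a STAR version printed as 1.5.2 and FastQC 0.11.8 appear in the submitters' processing notes, without roles. No source used here gives the genome build, annotation or strandedness, so reads of overlapping or antisense genes cannot be told apart. Each table lists 55986 loci. The authors deposited TPM values, which sum to 1000000 per library and were tested here, FPKM values, which served as an alternative, and coverage (a signal), whose ratio to FPKM gave the implied depth in Gb. No read counts were used, so no counting interval is given. An exact 0 may be a failed estimate.

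Loci with at least 1 TPM in 2 or more of the 6 libraries were tested on log2(TPM + 1) with limma 3.58.1 in R 4.3.3, by group means with a trend of variance on level (residual degrees of freedom 4, prior 2.38), two-sided, Benjamini-Hochberg adjusted over 22791 loci, threshold 0.05. This fit shares 1 spread between the groups, although the median SD was 0.273 in WT drought and 0.073 in WT normal. Weights per group called 14369 loci, against 15058. The fit was tested on simulated data of 22791 loci, of which 22591 were unchanged. It called 50% of the differences of 1 and 83% of those of 2 on the log2 scale, with 41 false calls. These shares need not hold here, where most loci were called. A gene that did not pass may still differ. Fold changes of TPM + 1 understate the change of weakly expressed genes. Alternatives were a pseudocount of 0.1, no filter, 5 TPM in 3 libraries, median-ratio scaling, FPKM, a fit over 11 libraries, weights per group, a replicate block and each library left out. After the data were seen, median-ratio scaling without WT drought replicate 3 was added. Single values per library were compared by exact permutation tests. Python 3.11.15 was used for joining and plots.

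Loci were named from knowledge where the RefSeq table (assembly ASM3414082v1) held the symbol on the same chromosome within 5 Mb and a gene length 0.9 to 1.1 times that in the files. This accepted 323 of the 521 written loci, in 41 lists, and 0.219% of 40100 random draws. Members and lists were chosen with earlier results of these data known. Genes named were up to 4 called members per list and direction by lowest adjusted p, or up to 2 where fewer than 2 were called, the 15 largest rises and 15 largest falls with at least 5 TPM and no overlap, up to 2 unnamed loci per direction, and OsNMCP1, NMCP1A and SWI3C1. Not all of these 172 are given with values, and a gene added to them is named as such. No promoter or protein sequences were used here.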

Additional observations from a re-analysis of the deposited data

Results flagged for a closer look

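The drought response differed between the 2 genotypes for 82 of 294 named genes (limma over 11 libraries, OE response minus WT response, adjusted over 22791 loci), and the 10 with the lowest adjusted p among the 172 genes taken by the rule for named genes follow, as values. NAC5 rose in OE by 0.84 and fell in WT by 2.76, an interaction of 3.60 (SE 0.23, adjusted p = 0.000158). It stood at 399.7, 343 and 337 TPM in OE drought and 202 and 199 TPM in OE normal. KAO, which did not pass in WT, rose in OE by 1.92 and gave 2.35 (SE 0.29, adjusted p = 0.00185). YSL2 rose in OE by 1.25 and fell in WT by 2.33, an interaction of 3.58 (SE 0.48, adjusted p = 0.00291). NRAMP1, which fell by 0.90 in OE and by 2.70 in WT, gave 1.80 (SE 0.24, adjusted p = 0.00291). YSL2 and NRAMP1 stood lower in OE normal (0.751 and 0.629 TPM for YSL2, 3.69 and 2.99 TPM for NRAMP1) than in WT normal.

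The next 3 genes, NCED3, PP2C30 and HOX24, rose in both genotypes and by more in OE. PP2C30 rose by 5.64 in OE and by 3.19 in WT, an interaction of 2.45 (SE 0.29, adjusted p = 0.00152). NCED3 gave 1.98 (SE 0.24, adjusted p = 0.00171), at 88.5, 75.4 and 57.7 TPM in OE drought. HOX24 gave 3.74 (SE 0.51, adjusted p = 0.00291), at 290.0, 210.3 and 110.5 TPM in OE drought. DREB1A differed by 0.19 in OE (adjusted p = 0.616) and by 4.01 in WT, an interaction of -3.82 (SE 0.44, adjusted p = 0.00133). It stood at 28.1, 33.2 and 24.4 TPM in OE drought and 24.3 and 25.0 TPM in OE normal. In WT normal it was lower, at 8.09, 12.6 and 7.51 TPM. COMT1 fell by 2.25 in OE and by 0.68 in WT and gave -1.57 (SE 0.17, adjusted p = 0.00121) and CAD2, which fell by 1.15 in OE and rose by 0.34 in WT, -1.49 (SE 0.18, adjusted p = 0.00159). The fit shares 1 spread over groups whose spreads differ, with 2 libraries in OE normal. It used TPM as deposited, without median-ratio scaling. ADH1, outside those 172, rose in OE by 1.77 and fell in WT by 0.50, an interaction of 2.26 (SE 0.22, adjusted p = 0.000677). No group had 4 or more libraries, so no library was tested as standing apart within its group.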

How the results depend on the processing

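Lower calls over all loci stood at 6535 with median-ratio scaling, against 10441, and lower calls of at least 1 on the log2 scale at 2488, against 4878. In a combination chosen after seeing the data, with the scaling and without WT drought replicate 3, 8371 loci were higher and 8223 lower, and 4187 rose and 2559 fell by at least 1. Leaving out 1 library gave 3637 to 5398 loci higher and 8418 to 12439 lower, and 2692 to 3058 and 4349 to 5290 at a size of at least 1. The replicate block gave 4363 higher and 9581 lower. Whether replicate numbers pair these libraries is not given, and the data cannot decide it. The deviations of same-numbered libraries correlated at only 0.064, 0.019 and 0.021, although each library correlated best with its own number. That is a hint from the data and not the design. Of 175 called genes that the rule for named genes takes or the text adds, 139 kept their call and direction under every alternative that tested them. Median-ratio scaling ended 23 calls and turned GI to 0.11, leaving out WT normal replicate 1, 2 or 3 ended 22, 16 and 20, WT drought replicate 1, 2 or 3 ended 7, 9 and 1, the replicate block 8, the fit over 11 libraries 7, no filter 6, weights per group 4, FPKM 3 and a pseudocount of 0.1 ended 1. EXPB6 and MT1A, also called lower, turned with WT drought replicate 3 left out as well; the other genes given next with a turned sign had not passed with TPM as deposited. Under median-ratio scaling PYL11 stood at 0.38, HAK1 at 0.15, P5CS1 at 0.23, P5CS2 at 0.13, RBOHB at 0.18 and SWI3C1 at 0.40 (adjusted p = 0.0126). With WT drought replicate 3 also left out, PYL11 stood at 0.10, HSP81-1 at 0.17, HAK1 at 0.55 (adjusted p = 0.000874), EXPB6 at 0.06, P5CS1 at 0.19 (adjusted p = 0.0345), RBOHB at 0.30, MT1A at 0.07, GI at 0.09 and SWI3C1 at 0.43 (adjusted p = 0.00333). NMCP1 stood at -0.06 with FPKM. With 1 library left out PYL11 ranged from -0.37 to 0.12, HAK1 from -0.48 to 0.08, P5CS2 from -0.43 to 0.04 and NMCP1 from -0.16 to 0.19. The cause of these moves was not tested. With no read counts, the counting error of weakly expressed genes is unknown. Sampling hour and batch are not given, so their part in the difference between groups was not tested.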
